A study of Caenorhabditis elegans with 2 samples.

Results

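Most of the 40 genes described here encode proteins that make, load, release and recycle neurotransmitter in *Caenorhabditis elegans*. The names were matched to the Ensembl annotation of the WBcel235 assembly, and all 40 were found among its 19973 protein-coding genes. They were split by function into 25 genes called release genes here and 15 genes that serve particular transmitter systems. Most of the 25 belong to the release machinery that most or all neurons use. The class also holds genes of peptide processing, calcium channels and a G protein regulator, some of which act outside neurons too. Binding of the LIM homeodomain factor LIN-11 was measured by chromatin immunoprecipitation and sequencing (ChIP-seq) in whole larvae of the L2 stage. The animals were of strain OP62, genotype unc-119(ed3) III; wgIs62, in which the integrated transgene wgIs62 supplies LIN-11 carrying GFP and FLAG at the C-terminal end, and sexes were pooled. The labels list no mutation of *lin-11* itself, give the age as unknown, do not name the promoter of the transgene, and state the antibody target as lin-11 with no reagent. There was 1 group of 2 biological replicates, with stocks from the Michael Snyder laboratory for replicate 1 and from the CGC for replicate 2. No second condition was present, so the comparisons are between classes of genes and between the replicates, and none carries a p-value.

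At a synapse, vesicles filled with transmitter fuse with the plasma membrane when calcium enters through voltage-gated channels. Fusion is driven by SNARE proteins on both membranes, is set up by priming factors of the active zone, and is followed by retrieval of the membrane through endocytosis. These proteins are common to neurons of all kinds, whereas many enzymes and transporters of acetylcholine, GABA, dopamine or serotonin mark the neurons that use that transmitter. LIN-11 is known for its part in the identity of several neuron types and of vulval and uterine cells. Whole animals were used, so the lists do not show in which cells a region was occupied.

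For each replicate and for the pooled reads, 30000 candidate regions on ce11 were listed. The authors' optimal list held 1917 regions, which were the 1917 with the highest signal in the pooled list. Its weakest region had a signal of 27.84, and the strongest pooled candidate outside it had 27.82. Signal is the authors' value for the strength of a region. Its scaling is not stated, so sizes were compared within a list only, and ranks are given from the strongest region down. The sources used here give no read depth, and the precision of each signal is therefore unknown. An optimal region was given to the gene whose protein-coding transcript start lay nearest its summit. As a second score, a gene counted when a summit lay in its body or within 5000 bp of it.

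The regions at release genes are shown first by their sequence, because 7 of the 15 such regions given by nearest start held the same 6 letters, ATCGAT, within 75 bp of the summit, against 8.19% of all optimal regions. Each line below gives the summit and 75 bases on either side of it, from the WBcel235 RefSeq genome, read 5′ to 3′ on the strand of the gene. Capitals mark matches, on either strand, to the motifs searched, which are spelled out with the motif results. The window of *egl-3*, the prohormone convertase of neuropeptide processing, lies at chrV:10174770-10174920, minus strand. That of *rab-3*, the vesicle small GTPase, lies at chrII:5725187-5725337, minus strand. That of *unc-104*, the kinesin that carries vesicles along axons, lies at chrII:6993054-6993204, plus strand. The liprin gene *syd-2*, which organises active zones, has its window at chrX:10555605-10555755, minus strand. That of *unc-36*, a calcium channel α2δ subunit, lies at chrIII:8201817-8201967, minus strand. The windows of *egl-21*, the carboxypeptidase that follows EGL-3, at chrIV:10481882-10482032, minus strand, and of *unc-10*, the active zone protein RIM, at chrX:7281499-7281649, minus strand, are shown for contrast because they lack these letters. Those of *unc-31*, *snb-1*, *unc-41*, *unc-64*, *unc-57* and *unc-13* also lack them and are not printed. *unc-11* and *cpx-1* hold them and are not printed either. Lines were thus picked by the motif, and its share among them is not that of the 15 regions. At the 37 nearest-start regions of a wider list of synaptic genes the share was 10.8%.
*egl-3*: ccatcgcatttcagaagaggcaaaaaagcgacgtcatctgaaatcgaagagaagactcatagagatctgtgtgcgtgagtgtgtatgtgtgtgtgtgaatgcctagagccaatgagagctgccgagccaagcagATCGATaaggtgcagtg
*rab-3*: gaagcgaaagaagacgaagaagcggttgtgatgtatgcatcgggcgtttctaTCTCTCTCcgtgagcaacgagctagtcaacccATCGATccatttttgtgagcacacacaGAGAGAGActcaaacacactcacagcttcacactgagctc
*unc-104*: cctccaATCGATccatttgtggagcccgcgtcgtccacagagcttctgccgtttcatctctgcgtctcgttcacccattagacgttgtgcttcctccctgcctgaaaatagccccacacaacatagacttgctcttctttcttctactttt
*syd-2*: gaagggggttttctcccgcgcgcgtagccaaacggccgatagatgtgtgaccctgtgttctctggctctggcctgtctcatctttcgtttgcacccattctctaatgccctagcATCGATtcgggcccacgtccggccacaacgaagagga
*unc-36*: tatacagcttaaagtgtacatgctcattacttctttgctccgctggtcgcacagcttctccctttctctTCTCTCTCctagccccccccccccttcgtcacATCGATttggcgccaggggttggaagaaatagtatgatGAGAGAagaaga
*egl-21*: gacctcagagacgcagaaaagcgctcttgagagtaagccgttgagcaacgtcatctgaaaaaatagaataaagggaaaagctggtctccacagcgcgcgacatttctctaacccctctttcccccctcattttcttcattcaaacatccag
*unc-10*: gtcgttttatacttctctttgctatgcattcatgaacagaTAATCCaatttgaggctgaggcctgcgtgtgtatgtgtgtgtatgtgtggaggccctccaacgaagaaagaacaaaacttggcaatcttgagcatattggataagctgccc

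Release genes were often given an optimal region by nearest start, and none of the 15 transmitter genes was. By nearest start, 15 of the 40 genes had an optimal region (37.5%), against 8.62% of all protein-coding genes (1721 of 19973). All 15 were release genes, so that 60.0% of the 25 release genes and none of the 15 transmitter genes was given a region. In a class of 15 genes a share of 8.62% is also few genes, so the transmitter count is near that of all genes. *cat-2*, a transmitter gene, was given a region when only the outermost start of each gene was used. By gene body or 5000 bp, 22 of the 40 genes had an optimal summit (55.0%), against 23.3% of all protein-coding genes. These were 20 of 25 release genes and 2 of 15 transmitter genes (13.3%). The difference between the 2 classes was not tested. When starts of non-coding genes also competed for regions, 8 release genes and no transmitter gene were given one, against 6.04% of protein-coding genes. With a window of 2 kb in place of 5 kb the counts were 13 and 1, against 14.9%.

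**Figure D1:**
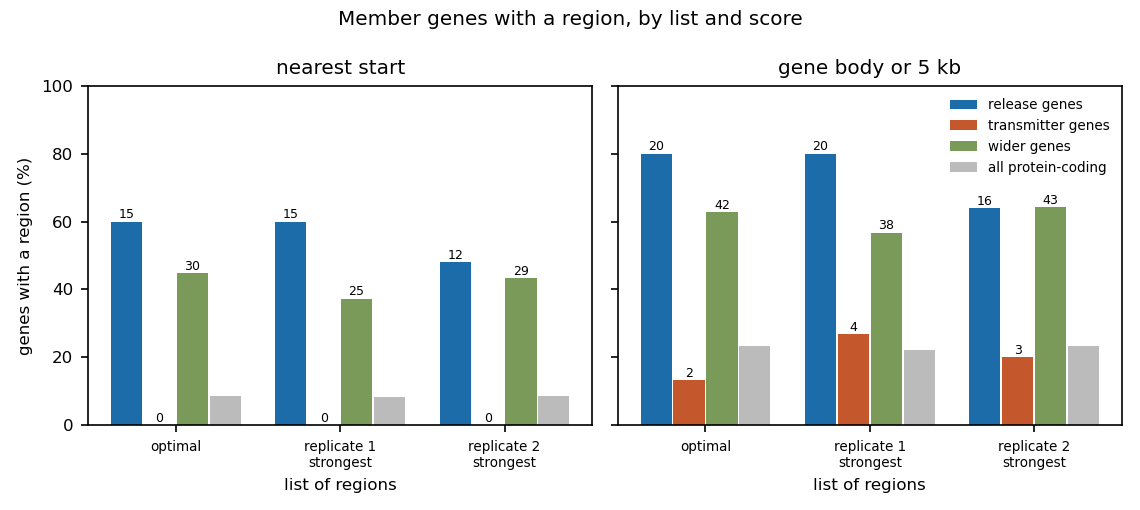
Share of genes with a region, in percent, by nearest start (left) and by gene body or 5 kb (right), in 3 lists of regions. Bars show the 25 release genes, the 15 transmitter genes, the wider list of 67 other synaptic genes and all protein-coding genes, with the number of genes above the first 3 bars of each set; by nearest start 12 to 15 release genes have a region and no transmitter gene does.

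Release genes had longer bodies and wider spacing than the median worm gene. The median gene body was 7375 bp for release genes, 3828 bp for transmitter genes and 2027 bp for all protein-coding genes. The stretch of genome to which a gene's starts are the nearest had a median of 11175 bp, 4522 bp and 3776 bp in the same order. Among the 1479 genes with a stretch of at least the release median, 17.1% were given an optimal region, and among the 14056 genes within the range of the transmitter genes 8.59% were. Per 100 kb of such stretch, release genes held 4.78 optimal regions, all protein-coding genes 1.91 and transmitter genes 0, over 313.8 kb for release and 85.7 kb for transmitter genes. The part of gene length and spacing in the counts was not tested.

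The SNARE proteins and their regulators held 4 of 8 genes with a region by nearest start and 6 of 8 by the wider window. The shares of all protein-coding genes were 8.62% and 23.3%. Among optimal regions matched in the strongest 1917 of both replicates, 1 of the 8 had one by nearest start, against 5.21%. *snb-1* encodes synaptobrevin, the vesicle SNARE, and its region at chrV:6658852-6659175 had a pooled signal of 48.2 (rank 882), with 34.1 in replicate 1 (rank 260) and 14.05 in replicate 2 (rank 2473). *unc-64* encodes syntaxin, the plasma membrane SNARE, and its region at chrIII:13275764-13276087 had 28.4 (rank 1869) and 18.9 in replicate 1 (rank 950), with no replicate 2 summit within 100 bp. Both were thus among the strongest 1917 regions of replicate 1 and not of replicate 2. The region of *unc-13*, the vesicle priming factor, ran the other way, with a pooled signal of 30.2 (rank 1708), 9.42 in replicate 1 (rank 3658) and 21.1 in replicate 2 (rank 1483). The region of *cpx-1*, which encodes the SNARE clamp complexin, had 44.3 (rank 1007), 18.9 (rank 949) and 24.5 (rank 1189) in the same order, so it was strong in both.

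For *ric-4* and *snt-1* the region lay within 5000 bp, but a start of another gene was nearer. *ric-4* encodes SNAP-25, the remaining SNARE, and the summit 3638 bp before its start (pooled 34.1, replicate 1 14.7, replicate 2 18.7) was nearest to *Y22F5A.11*. *snt-1* encodes the calcium sensor synaptotagmin, and the summit 2224 bp before its start (43.4, 17.7 and 24.04) was nearest to *F31E8.5*. *unc-18*, the syntaxin partner, and *tom-1*, the inhibitor tomosyn, had no optimal region by either score. Their strongest pooled candidates had signals of 13.3 and 12.1, below the weakest optimal region.

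Of the active zone, Rab and vesicle phosphoprotein genes, 3 of 5 had a region by nearest start and 4 of 5 by the window. The shares of all protein-coding genes were 8.62% and 23.3%. With only regions strong in both replicates, 2 of the 5 had one by nearest start, against 5.21%. The *rab-3* region at chrII:5725100-5725423 had a pooled signal of 91.0 (rank 217), with 55.1 in replicate 1 (rank 58) and 34.0 in replicate 2 (rank 702). It lay in an intron, 532 bp upstream of an internal start and 2591 bp past the outermost start. The *syd-2* region at chrX:10555518-10555841 had 57.1 (rank 650), with 19.9 in replicate 1 (rank 866) and 36.8 in replicate 2 (rank 612), and its summit fell in the exon of the non-coding gene *F59F5.9*. Both regions were among the strongest of each replicate.

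The *unc-10* region at chrX:7281412-7281735 was near the limit, with a pooled signal of 30.5 (rank 1687), 21.9 in replicate 1 (rank 713) and 8.25 in replicate 2 (rank 5891). *aex-3*, the exchange factor that activates RAB-3, had its optimal summit 3874 bp upstream (36.1, 14.05 and 21.3), where the start of *dyf-11* was nearer. *snn-1*, which encodes synapsin, had none, and its strongest pooled candidate reached 12.9. The optimal regions given to this group thus ran from rank 217 to rank 1687.

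All 3 genes of dense core vesicles and peptide processing had a region by nearest start, against 8.62% of all protein-coding genes. The *egl-3* region at chrV:10174683-10175006 had the highest signal of the 15, at 132.9 pooled (rank 64), 49.3 in replicate 1 (rank 93) and 88.9 in replicate 2 (rank 65). The *egl-21* region at chrIV:10481795-10482118 lay 113 bp before the start, with 56.7 (rank 659), 19.6 (rank 901) and 35.97 (rank 635). *egl-21* had another optimal summit 2071 bp upstream, nearest to the start of *ced-5*, with a pooled signal of 35.2 and no match in replicate 1. *unc-31* encodes CAPS, the dense core vesicle priming factor, and its region at chrIV:12771531-12771854 had 54.8 (rank 702), 22.9 (rank 664) and 31.6 (rank 805). The nearest-start regions of all 3 genes were among the strongest 1917 of both replicates.

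Of the 3 calcium channel subunits, *unc-36* alone had a region by nearest start, against 8.62% of all protein-coding genes. That region, at chrIII:8201730-8202053, had a pooled signal of 36.6 (rank 1333), 24.7 in replicate 1 (rank 576) and 8.39 in replicate 2 (rank 5697), and its summit lay in the exon of the non-coding gene *C50C3.15*. The L-type channel gene *egl-19*, which also acts in muscle, had a summit 3320 bp upstream with 73.3, 24.1 and 48.9, nearest to the start of *C48A7.16*. The presynaptic channel gene *unc-2* had no optimal region; its strongest candidate had a pooled signal of 23.4 (rank 2476) and was among the strongest of replicate 1 (13.7, rank 1690). *ric-8*, a regulator of G protein signalling that also acts in the early embryo, had summits 1813 and 3115 bp upstream (pooled 59.1 and 34.2), both nearest to the start of *mdf-2*.

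Of the endocytosis genes, 3 of 4 had a region by nearest start, against 8.62% of all protein-coding genes. *unc-57* encodes endophilin, and its region, chrI:4673955-4674278, had 67.6 (rank 441), with 35.3 in replicate 1 (rank 238) and 34.7 in replicate 2 (rank 681). *unc-11* encodes the clathrin adaptor AP180, and its region, chrI:3806522-3806845, had 49.3 (rank 848), 24.1 (rank 604) and 25.1 (rank 1147). The stonin gene *unc-41* had a region 1536 bp past a start, in an intron, with 37.7 (rank 1264), 16.6 (rank 1203) and 22.3 (rank 1356), the only one of the 15 downstream of its nearest start. A stronger summit of *unc-41*, with 49.3 pooled, lay 4698 bp upstream beside *ruvb-1*. *unc-26*, which encodes synaptojanin, had none, with a strongest candidate of 14.2. The single transport gene, *unc-104*, had a region at chrII:6992967-6993290 with 41.6 (rank 1105), 22.4 (rank 691) and 20.1 (rank 1585).

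None of the 5 acetylcholine genes and none of the 4 GABA genes had an optimal region by either score. Of all protein-coding genes, 8.62% had one by nearest start and 23.3% by the window. In classes of 5 and 4 genes these shares are also few genes, so the counts are near those of all genes. The vesicular transporter *unc-17* and the choline acetyltransferase *cha-1* share a locus, and the same candidate, with a pooled signal of 14.3, was the strongest in the window of each. The choline transporter *cho-1* reached 13.04, and the acetylcholinesterases *ace-1* and *ace-2* reached 17.3 and 13.8. Of the GABA genes, the glutamate decarboxylase *unc-25* reached 14.98, the vesicular transporter *unc-47* 13.5, its sorting partner *unc-46* 10.4 and the plasma membrane transporter *snf-11* 14.9. All of these lay below the weakest optimal signal of 27.84. In replicate 2, *unc-25* had a candidate among the strongest 1917 (18.5, rank 1779), nearest to the start of *epg-3*.

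Of the 6 monoamine genes, *cat-2* and *mod-5* had an optimal summit within 5000 bp, and each lay at another gene. By the window the share of all protein-coding genes was 23.3%, which in a class of 6 is also few genes. *cat-2* encodes tyrosine hydroxylase of dopamine synthesis. The region 2474 bp upstream, chrII:255268-255420, had the highest signal near any of the 40 genes, with 154.8 pooled (rank 36), 42.8 in replicate 1 (rank 140) and 112.1 in replicate 2 (rank 28). Its summit was 149 bp before a start of *scc-2* and within an intron of that gene. *mod-5* encodes the serotonin transporter, and its region (47.4, 13.2 and 33.2) lay beyond the 3′ end of the gene, in a coding exon of *rpb-7* and 30 bp before the start of *Y54E10BR.2*. Among candidates nearest to a start of these genes themselves, the strongest had pooled signals of 11.01 for *cat-2* and 10.5 for *mod-5*.

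The dopamine transporter gene *dat-1* came closest to the limit among genes without an optimal region, at 25.99 (rank 2105), with *saeg-2* as the nearest start and no candidate nearest to its own start. The tyrosine decarboxylase gene *tdc-1* reached 14.2, the tryptophan hydroxylase gene *tph-1* 12.4 and the decarboxylase gene *bas-1* 11.3. In replicate 1, *dat-1* (13.7, rank 1694) and *tdc-1* (13.2, rank 1820) had a candidate in the window among the strongest 1917. The nearest starts were those of other genes, *saeg-2* for *dat-1* and *gei-14* for *tdc-1*.

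**Figure D2:**
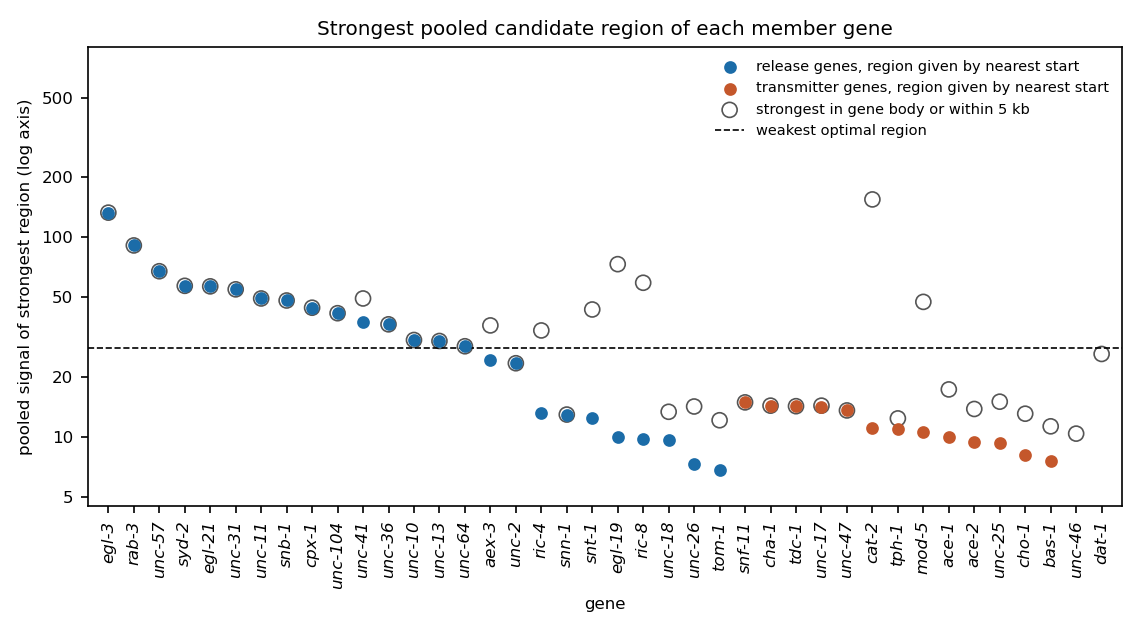
Pooled signal (log axis) of the strongest candidate region of each of the 40 genes, by nearest start (filled points) and in the gene body or within 5 kb (open circles). The dashed line is the weakest optimal region, at 27.84; 15 filled release points and no filled transmitter point lie above it, and *unc-46* and *dat-1* have no filled point.

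Transmitter genes had candidate regions as densely as release genes, of lower signal. All 40 genes had a pooled candidate in the body or within 5000 bp, against 91.0% of all protein-coding genes, with 40.7 candidates per 100 kb of window at transmitter genes, 36.4 at release genes and 30.3 over all protein-coding genes. Of these candidates, 12.3% were optimal at release genes, 2.15% at transmitter genes and 7.17% over all genes. The median of the strongest pooled signal per gene was 43.4 for release genes (range 12.1 to 133), 14.3 for transmitter genes (range 10.4 to 155) and 13.8 over all genes with a candidate, a ratio of 3.04 between the 2 classes. With a window of 1 kb the medians were 14.2 and 10.9, a ratio of 1.29. In replicate 1 the medians were 18.9, 8.60 and 7.59, and in replicate 2 they were 21.3, 7.24 and 8.43. With the 5 kb window, transmitter genes were thus near the median of all genes in each list, and release genes above it.

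The replicate lists gave the same order of the classes on their own. Among the 1917 strongest regions of replicate 1 (signal of at least 12.9), 15 of 25 release genes and no transmitter gene had a region by nearest start, against 8.33% of all genes. By the window these were 20 and 4 genes, against 22.1%. The transmitter share was 26.7% in this list and 13.3% in the optimal list, each from few of the 15 genes. Among the 1917 strongest of replicate 2 (signal of at least 17.4), 12 release genes and no transmitter gene had one by nearest start, against 8.62%, and by the window 16 and 3 genes, against 23.3%. Of the 1102 optimal regions matched among the strongest of both replicates, release genes kept 10 genes by nearest start, against 5.21%, and transmitter genes had none.

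With summits matched at 100 bp, support by both replicates was close to that of the whole list. Of the 25 distinct optimal regions of the 40 genes, 23 had a summit within 100 bp in both replicates (92.0%), against 91.4% of all optimal regions. Among the strongest of both replicates were 17 of 25 (68.0%), against 57.5%. The median pooled rank was 909, against 959 for all optimal regions, and 13 of the 25 were in the stronger 958 of the list. The members' regions thus ran through nearly the whole list, from rank 36 to rank 1869. The 5 nearest-start regions not strong in both were those of *snb-1*, *unc-10*, *unc-36* and *unc-64*, which replicate 2 ranked low or did not match, and of *unc-13*, which replicate 1 ranked low.

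**Figure D3:**
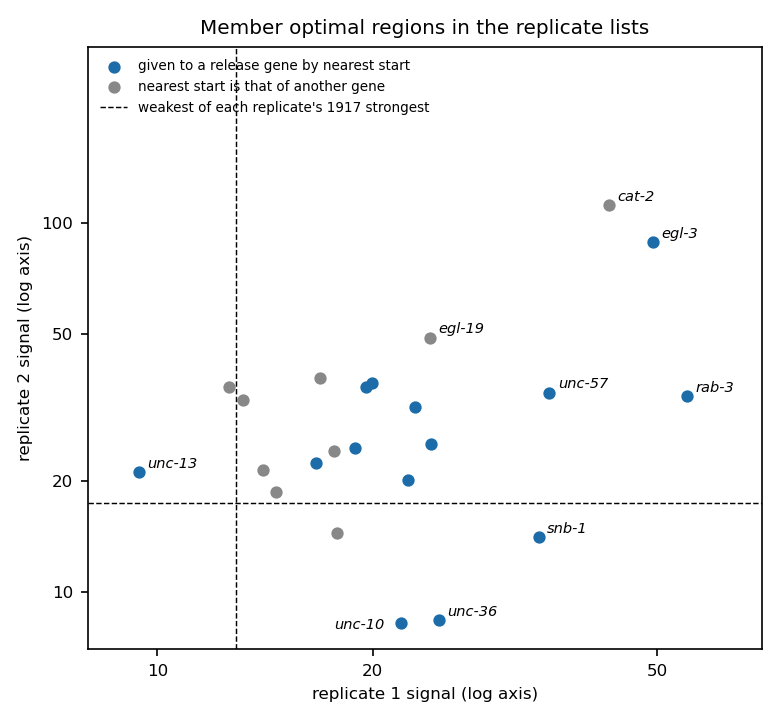
Signal in replicate 1 and in replicate 2 (log axes) of the optimal regions of the 40 genes that both replicates matched. Dashed lines are the weakest of each replicate's 1917 strongest regions, 12.9 and 17.4; *cat-2*, *egl-3* and *rab-3* lie well above both, and *unc-10* and *unc-36* lie below the replicate 2 line.

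Regions given to release genes lay farther upstream of protein-coding starts than most. The median distance from summit to start was 1252 bp for the 15 regions and 349 bp over all optimal regions. Upstream of the start lay 14 of 15 (93.3%), against 79.4% of all. More than 1 kb upstream lay 9 of 15 (60.0%), against 19.9%, while within 1 kb upstream lay 5 of 15 (33.3%), against 59.5%. The regions farthest out were those of *snb-1* (2513 bp), *cpx-1* (2365 bp), *unc-31* (2174 bp) and *unc-104* (1858 bp), and the closest was that of *egl-21*. For the 37 nearest-start regions of the wider list the median was 508 bp, and 35.1% lay more than 1 kb upstream. Non-coding starts were left out here, and one was nearer for *egl-3*, *snb-1*, *unc-104* and *unc-64*, which are among the 9. The wider spacing of release genes (median stretch 11175 bp, against 3776 bp) allows longer distances, and its part was not tested. Annotated starts of *trans*-spliced worm transcripts need not be sites of initiation, so these are distances to annotation.

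**Figure D4:**
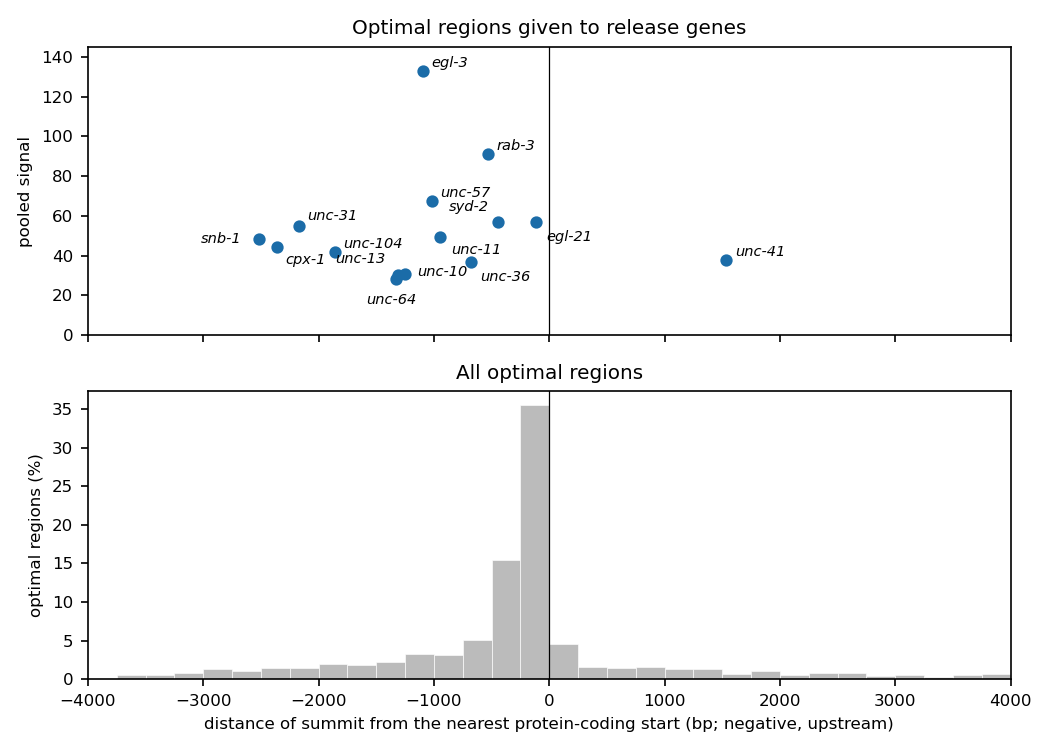
Distance in bp of the summit from the nearest protein-coding start, with negative values upstream. The upper plot shows the pooled signal of the 15 regions given to release genes, and the lower plot the share of all 1917 optimal regions per bin, which peaks just upstream of the start while 9 of the 15 lie beyond 1 kb.

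Motifs were searched on both strands in the summit and 75 bases on either side. The palindrome ATCGAT, a site of CUT homeodomain factors, was found at 7 of the 15 nearest-start regions (46.7%), those of *egl-3*, *rab-3*, *syd-2*, *unc-11*, *cpx-1*, *unc-104* and *unc-36*. It occurred in 8.19% of all optimal regions (157 of 1917) and in 5.41% of the other 28083 pooled candidates. In worms, CUT factors are known regulators of genes expressed in all neurons, but none was measured here and their part was not tested. At the 37 nearest-start regions of other synaptic genes the share was 10.8%, close to that of all optimal regions. Within 50 bp of the summit, 5 of the 15 held it, against 5.58%. The related ATTGAT was found at *unc-31* alone, against 8.61% of all optimal regions. A match describes the letters and not a bound site.

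TAATTA, the core recognised by many LIM homeodomain proteins, was found at none of the 15 regions, against 2.30% of all optimal regions and 3.94% of the other candidates. In 15 regions a share of 2.30% is also few regions, so the count cannot be told from that of all optimal regions. Of the 25 distinct optimal regions of the 40 genes, 1 held TAATTA. It was a region of *ric-8* whose nearest start was that of *mdf-2*. TAATCC, the core of the GABA regulator UNC-30, was found at *unc-10* (1 of 15), against 2.40%. The COE site of the cholinergic regulator UNC-3 was found at none, against 0.0522%. A site that rare is almost sure to be missing from 15 regions, and none of the 15 was given to an acetylcholine gene. The count therefore says nothing of UNC-3. The repeat GAGAGA, whose matches may overlap each other, was found at 8 of 15 (53.3%), against 36.7% of all optimal regions and 11.7% of the other candidates. GC content ran from 43.7% to 63.6% in the 15, with medians of 48.3% over all optimal regions and 43.0% over the other candidates, and its part in the motif shares was not tested.

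A wider list of 67 other synaptic, transmitter and vesicle genes was scored in the same way. By nearest start 30 had an optimal region (44.8%, against 8.62% of all protein-coding genes), and by the window 42 did (62.7%, against 23.3%). The list was split by function after its values had been seen. Among the 14 transmitter enzymes and transporters, 1 had a region by nearest start (7.14%), the vesicular monoamine transporter gene *cat-1*, with a pooled signal of 28.6 (rank 1843) in a tRNA gene within it. Among the 53 other synaptic and vesicle genes, 29 had one (54.7%). The share of the 14 was near the 8.62% of all genes. By the window 5 of 14 (35.7%) and 37 of 53 genes (69.8%) had a summit, against 23.3%. The share of the 14, and the 13.3% of the 15 transmitter genes above, each lay few genes from that of all genes. For *glt-3*, *gta-1*, *pcbd-1* and *ptps-1* the nearest start was that of another gene. The 5 genes with the strongest optimal region in the window were *egl-30* (232.0), which encodes Gαq, *sng-1* (129.8), which encodes the vesicle protein synaptogyrin, *dpy-23* (129.7) and *apb-1* (111.1), which encode clathrin adaptor subunits, and *goa-1* (118.8), which encodes Gαo. The nearest start was that of *epg-7* for *sng-1* and of *C26C6.9* for *goa-1*.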

How the data were processed

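LIN-11 ChIP-seq had been run on 2 biological replicates of whole L2 larvae of 1 strain. The authors deposited region lists for each replicate, for pooled reads and after the irreproducible discovery rate procedure, on ce10 and ce11. Per the deposited notes, regions were called against control alignments, which were not analysed here. The sources used here name no peak caller, aligner, version or threshold. The authors gave each region a signal, a −log10 q-value and a summit offset. The −log10 q-value was at its ceiling of 3.54 for most of the members' regions and was not used for ranking. The 4 ce10 lists were not used, and no coordinate was converted.

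The summit was the start plus the offset, and coordinates count from 1. Starts came from Ensembl release 115, which with the sequences is on WBcel235, the assembly of ce11. Summits matched at 100 bp or less. Scripts ran in Python 3.11.15 with numpy 2.4.6 and pandas 2.3.3. The assignment was checked only on simulated summits close to isolated starts, which cannot check competing starts or distant summits. The members, lists and motifs were chosen with earlier results of these data known, and no test was run. Values are given for every member with an optimal region and, of the others, at least for the 3 with the strongest candidates. Alternatives varied the assignment, window, motif window, matching distance, list and replicate.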

Additional observations from a re-analysis of the deposited data

How the results depend on the processing

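By nearest start, counting genes of any biotype left 8 of the 40 genes, all release genes (against 6.04% of protein-coding genes), as non-coding starts were then nearer for *egl-3*, *snb-1*, *syd-2*, *unc-104*, *unc-36*, *unc-41* and *unc-64*. The strongest 958 optimal regions also left 8 (against 4.54%), all release genes. With only the outermost start of each gene, 1 transmitter gene (*cat-2*) was given a region. By the window, the 40 genes, release genes and transmitter genes numbered 14, 13 and 1 at 2 kb (14.9% of all genes), 6, 6 and 0 at 1 kb (11.4%), and 2, 2 and 0 in the gene body alone (2.25%). The strongest 958 gave 13 and 11 for the 40 and for release genes (13.4%). Without a replicate, the transmitter count by the window was 3 or 4 in place of 2, and the release count by nearest start was 12 or 15. Without replicate 1, *snb-1*, *unc-10*, *unc-36* and *unc-64* lost their region and *aex-3* gained one; without replicate 2, *unc-13* lost it and *unc-2* gained one. The ratio of median signals fell to 1.29 at 1 kb, from medians of 14.2 and 10.9. These windows are shorter by construction; the cause of the other moves was not tested. ATCGAT was found at 5 of 15 regions with 50 bp on each side (5.58% of all optimal regions) and at 8 with 100 bp (11.7%). The list strong in both replicates was chosen after seeing the data. No paired analysis was possible because there was 1 group. Unknown depth, whole animals, 2 replicates and the transgene limit every value.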

Other observations

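The 15 windows at release genes were compared in all 105 pairs for shared runs of at least 12 bases outside simple repeats, a search added after the sequences had been seen. The windows of *egl-3* and *egl-21*, whose products act in sequence in neuropeptide processing, shared the 13 bases acgtcatctgaaa, which occurred in 2 optimal windows, 3 pooled windows and at 25 places in the genome. The windows of *rab-3* and *unc-104* shared the 12 bases atcgatccattt, which include the ATCGAT match and occurred in 2 optimal windows, 2 pooled windows and at 32 places in the genome. Those of *unc-36* and *cpx-1* shared 13 bases found at 3 places in the genome. What these runs do was not tested.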
